A study of Mus musculus with 4 samples.

Results

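A set of 8 transcriptional regulators shared by many endocrine cell types was followed through single cells of the mouse intestinal endocrine lineage: Neurod1, Neurod2, Insm1, Myt1, St18, Runx1t1, Sox4 and Tox3. They were chosen by name from the 29161 genes of the deposited count table, and all 8 were measured. The cells came from enteroids (cultured buds of gut epithelium in a Matrigel dome, fed noggin, EGF and R-spondin-1) of female CD1 mice that carry a Neurog3eYFP reporter allele beside a wild-type one. Neurog3 starts the endocrine programme, and its reporter marks cells that express it and, while the fluorescent protein lasts, their descendants. Living eYFP-positive cells were sorted at 1 cell per well, and 290 of 368 sorted cells were in the table. Plate 1 held 72 cells from duodenum (replicate 1, 39 weeks of age), plate 2 held 83 and plate 3 held 72 from duodenum (replicates 2 and 3, 12 weeks), and plate 4 held 63 from jejunum (replicate 1, 12 weeks). Every cell compared here carries the reporter allele and passed the same gate. The labels do not say how many mice stand behind a plate, so p-values speak for these 4 plates only. Between groups of cells of the same plates, they measure the spread of the difference over the 2, 3 or 4 plates used. Between the tissues they measure the spread between plates.

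These regulators belong to the network around Neurog3, not all of them downstream of it. NEUROD1 and NEUROD2 are basic helix-loop-helix (bHLH) activators that bind E-box DNA together with an E protein, and Neurod1 is a known target of NEUROG3 that is needed for secretin and cholecystokinin cells. INSM1 is a zinc-finger repressor that recruits the LSD1 histone demethylase complex and is needed for endocrine differentiation. MYT1 and ST18 are related zinc-finger factors of the endocrine pancreas and nervous system. RUNX1T1 is a corepressor of the ETO family, and SOX4 and TOX3 are HMG-box proteins, SOX4 being common in progenitors of many lineages.

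Cells were grouped by genes outside this set. Cells with 5 or more Neurog3 counts (Neurog3-positive) numbered 50 (7, 12, 24 and 7 in plates 1 to 4). Cells with Tph1, the serotonin-synthesis enzyme of enterochromaffin cells, at 200 counts per 1000000 (CPM) or more numbered 97 (21, 25, 20 and 31). Cells with the peptide hormone genes Cck, Gip, Gcg or Ghrl at 1000 CPM or more numbered 50 (3, 22, 10 and 15). Cells with Chgb, a secretory granule protein, below 2000 CPM (Chgb-low) numbered 139 (44, 37, 39 and 19), and the other 151 are called Chgb-high. The values next to each limit were 3 and 5 counts for Neurog3, 185 and 223 CPM for Tph1, 907 and 1072 CPM for the highest hormone, and 1712 and 2198 CPM for Chgb. The classes overlap: 17 Neurog3-positive cells were also Tph1-high, 2 peptide-hormone-high and 24 Chgb-low, 3 cells were both Tph1-high and peptide-hormone-high, 19 peptide-hormone-high cells were Chgb-low, and 0 Tph1-high cells were.

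The Chgb-low class also held cells with markers of other secretory types. The summed level of 8 goblet markers was 17833 to 24251 CPM over plates in Chgb-low cells and 828 to 1509.8 CPM in Chgb-high cells. Summed Paneth markers (7 genes) were at 3135 to 13579 CPM against 328 to 1056 CPM. Endocrine markers (10 genes, Chgb among them) summed to 643 to 3622 CPM in Chgb-low and 45514 to 76108 CPM in Chgb-high cells. No gene of these lists was at 0 in every plate of either class. Chgb-low cells had a median of 374867 counts per cell and Chgb-high cells 474939. Plate totals ran from 23893272 to 46490618 counts and single cells from 202711 to 2312044. Well names repeat between plates (41 occur in all 4), as plate positions do, and each column was kept with its own plate.

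In the mouse genome (GRCm38), Neurod1 lies at chr2:79452521-79456751 and Neurod2 at chr11:98325415-98329648, both on the minus strand. Insm1 is at chr2:146221921-146225020 and Myt1 at chr2:181763332-181827797, both on the plus strand. St18 is at chr1:6487231-6860940 and Runx1t1 at chr4:13743436-13893649, both plus, and Sox4 is at chr13:28948919-28953713 and Tox3 at chr8:90247040-90348343, both minus. Insm1 and Sox4 have 1 exon, and the transcripts with most exons of Myt1 and St18 have 23 and 24. Neurod1 lies inside the span of Cerkl on the same strand and overlaps Gm26755 on the other, and Sox4 overlaps Gm26735 on the other strand. Whether counting used strand is not given in the sources used here, so reads of these pairs may not be told apart. Cerkl reached 5 counts in 13 cells, and Neurod1 in 192. Values are not divided by gene length, so levels are compared between cells for 1 gene and not between genes.

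The bases upstream of 3 of these genes are shown because Neurod1 and Neurod2 are paralogs whose levels over the classes are set side by side, and Sox4 is the gene called between Chgb-low and Chgb-high cells. They are from RefSeq (GRCm38.p6), where 5 of the 8 genes had a promoter entry, and are read 5′ to 3′ along the gene, ending before the annotated gene start. They cover chr2:79456752-79456886, chr11:98329649-98329895 and chr13:28953714-28953949, all on the minus strand. Capitals mark E-boxes (CANNTG, which reads alike on both strands).
Neurod1: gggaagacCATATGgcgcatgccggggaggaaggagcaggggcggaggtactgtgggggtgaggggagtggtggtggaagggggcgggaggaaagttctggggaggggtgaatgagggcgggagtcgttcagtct
Neurod2: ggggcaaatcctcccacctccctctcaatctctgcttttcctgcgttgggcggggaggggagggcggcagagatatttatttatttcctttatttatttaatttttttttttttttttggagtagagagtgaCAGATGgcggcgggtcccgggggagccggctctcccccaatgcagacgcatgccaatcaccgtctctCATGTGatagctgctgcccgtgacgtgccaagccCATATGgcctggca
Sox4: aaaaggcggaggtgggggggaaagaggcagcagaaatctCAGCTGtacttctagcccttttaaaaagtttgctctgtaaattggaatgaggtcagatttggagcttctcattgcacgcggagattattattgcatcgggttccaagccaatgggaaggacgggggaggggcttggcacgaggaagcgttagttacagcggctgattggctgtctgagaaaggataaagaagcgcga
The E-box CATATG occurs upstream of both Neurod genes, 242 and 17 bases before the RefSeq start, and in 3.91% of 32851 mouse promoter windows of 300 bases. Neurod2 also holds CAGATG (on either strand in 17.2% of windows), and Sox4 holds CAGCTG (16.3%). Any E-box is found in 72.3% of windows, so a match describes the letters and no more.

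Among the activators, Neurod1 was present in every class. Its summed level in Neurog3-positive cells was 959, 461, 166 and 399.9 CPM in plates 1 to 4. In Tph1-high cells it was 613, 425, 157 and 334 CPM, and in peptide-hormone-high cells 658, 355, 245 and 384 CPM, where plate 1 has only 3 cells. Chgb-low cells had 126, 152, 60.2 and 229 CPM, and Chgb-high cells 681, 470.4, 197 and 363 CPM. Within each plate the Chgb-low level was the lowest of the 5 classes, and plate 3 was the lowest plate of every class. Neurod1 reached 5 counts in 70.0% of Neurog3-positive, 77.3% of Tph1-high, 84.0% of peptide-hormone-high, 50.4% of Chgb-low and 80.8% of Chgb-high cells. Over plates the share ran from 29.5% to 73.7% in Chgb-low and from 67.9% to 95.5% in Chgb-high cells, with overlap. Exact (Clopper-Pearson) 95% intervals given with shares below pool the cells of 4 plates, so they cover counting error and not the spread between plates, and counts may include PCR copies.

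Neurod2, its paralog, had its highest level of the 5 classes in Neurog3-positive cells in every plate. It was at 352, 269, 182 and 350.3 CPM in Neurog3-positive cells and at 295, 215, 135 and 130.2 CPM in Tph1-high cells. In peptide-hormone-high cells it was at 275, 179, 1.08 and 134 CPM, and in plate 3 0 of 10 such cells reached 5 counts, which allows a share of up to 30.0% by a limit of 3 cells of the total and 30.8% by the exact interval. Chgb-low and Chgb-high cells overlap, at 158, 182, 104 and 155 CPM against 318, 172, 95.5 and 124 CPM and with shares of 48.2% and 47.7% of cells. Plate 1 was lower in Chgb-low cells and the other 3 plates were higher. Across all 290 cells, 105 had both Neurod genes at 5 counts, 87 Neurod1 alone, 34 Neurod2 alone and 64 neither. Among peptide-hormone-high cells these numbers were 19, 23, 3 and 5, and among Chgb-low cells 43, 27, 24 and 45.

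Of the zinc-finger genes, Insm1 was at 109, 104, 377 and 155 CPM in Neurog3-positive cells, 137, 51.3, 382 and 146 CPM in Tph1-high cells and 148, 74.1, 188 and 203 CPM in peptide-hormone-high cells. In Chgb-low cells it was at 33.7, 37.2, 166 and 165 CPM and in Chgb-high cells at 126, 62.5, 284 and 160.1 CPM. Plate 3 was the highest plate in every class but the peptide-hormone-high one, and the classes overlap over plates. Insm1 reached 5 counts in 80.0% of Neurog3-positive cells and in 76.3%, 76.0%, 56.8% and 78.1% of Tph1-high, peptide-hormone-high, Chgb-low and Chgb-high cells.

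Myt1 was found in the fewest cells of the 8, with 5 or more counts in 25.9% of all cells. Its levels in Chgb-low cells were 40.8, 56.9, 34.6 and 42.3 CPM, and in Chgb-high cells 268, 164, 108 and 131 CPM, without overlap. Neurog3-positive cells were at 286, 181, 8.93 and 54.2 CPM, Tph1-high cells at 246, 168, 77.9 and 123 CPM and peptide-hormone-high cells at 148, 162, 276 and 81.5 CPM. Few cells carried each value: 1 cell held 81.1% of the Myt1 counts of Tph1-high cells in plate 3, and 1 cell 86.4% of those of Chgb-low cells there. The share of cells at 5 counts was 26.0% in Neurog3-positive, 35.1% in Tph1-high, 34.0% in peptide-hormone-high, 15.8% in Chgb-low and 35.1% in Chgb-high cells.

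St18 was at 154, 443, 91.9 and 186 CPM in Neurog3-positive cells, against 194, 132, 64.5 and 85.6 CPM in Tph1-high cells and 217, 281, 158 and 109 CPM in peptide-hormone-high cells. The classes overlap, and plate 2 was above the other plates in Neurog3-positive cells. Chgb-low cells had 77.6, 114, 38.4 and 119 CPM and Chgb-high cells 175, 227, 98.5 and 102 CPM. St18 reached 5 counts in 52.0%, 42.3%, 58.0%, 26.6% and 50.3% of the cells of these 5 classes. Myt1 and its relative St18 were both at 5 counts in 42 cells, Myt1 alone in 33, St18 alone in 71 and neither in 144.

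Runx1t1, the corepressor, was low in peptide-hormone-high cells. It was at 277, 467, 298 and 394 CPM in Neurog3-positive cells and at 248, 223, 373 and 272 CPM in Tph1-high cells. In peptide-hormone-high cells it was at 1.07, 96.3, 162 and 59.3 CPM, below every plate of those classes. Chgb-low cells had 41.5, 126, 105 and 93.7 CPM and Chgb-high cells 272, 208, 316 and 247 CPM, again without overlap. It reached 5 counts in 34.0% of peptide-hormone-high cells (interval 21.2% to 48.8%), 72.2% of Tph1-high cells (62.1% to 80.8%) and 68.0% of Neurog3-positive cells (53.3% to 80.5%). Over plates these shares ran from 33.3% to 40.0%, from 64.0% to 87.1% and from 42.9% to 75%. After every cell had been thinned to 100000 counts the shares were 30.0%, 62.9% and 66.0%. Among peptide-hormone-high cells the share was 26.3% of 19 that were Chgb-low and 38.7% of 31 that were Chgb-high.

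The HMG-box gene Sox4 was higher in Chgb-low than in Chgb-high cells in every plate. Chgb-low cells had 227, 207, 243 and 302 CPM in plates 1 to 4, and Chgb-high cells 148, 73.5, 80.5 and 65.6 CPM, without overlap. Neurog3-positive cells were at 265, 322, 156 and 301 CPM, Tph1-high cells at 147, 69.2, 58.4 and 71.3 CPM, and peptide-hormone-high cells at 306, 75.7, 113 and 85.7 CPM. Sox4 reached 5 counts in 87.8% of Chgb-low cells (81.1% to 92.7%) and 50.3% of Chgb-high cells (42.1% to 58.6%), although Chgb-low cells were shallower in the median. Over plates the shares ran from 78.4% to 94.7% and from 41.3% to 64.3%, without overlap. Thinned to equal depth, the shares were 76.3% and 41.1%.

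Neurog3-positive cells were also split by Chgb, and plates 1 and 4 then have 3 or 4 cells a side. Sox4 was at 180.5, 713, 192 and 365 CPM in Neurog3-positive Chgb-low cells and at 309.8, 55.6, 99.6 and 247 CPM in Neurog3-positive Chgb-high cells, with plate 1 in the other order than plates 2, 3 and 4. It reached 5 counts in 5 of 5 and 12 of 13 Chgb-low cells of plates 2 and 3, against 3 of 7 and 4 of 11 Chgb-high cells. In plates 1 and 4 it did so in 3 of 3 and 3 of 3 against 4 of 4 and 3 of 4. Runx1t1 was at 0, 314, 134 and 277 CPM against 426, 570.4, 547 and 494 CPM, and Neurod1 at 474, 405, 83.3 and 26.3 CPM against 1219.9, 499.8, 291 and 722 CPM, both lower in the Chgb-low cells of every plate. Neurod2 was at 7.90, 516, 171 and 178 CPM in the Neurog3-positive Chgb-low cells of plates 1 to 4. In the Neurog3-positive Chgb-high cells of plates 2 and 3 it was at 101 and 198 CPM, so these 2 plates had opposite orders. In plates 1 and 4 all Neurog3-positive cells together were at 352 and 350.3 CPM, above their Chgb-low part. Neurod2 was therefore lower in the Chgb-low cells of plates 1, 3 and 4 and higher in those of plate 2. No test was made of these values.

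Tox3 was at 535, 295, 46.3 and 120.1 CPM in Neurog3-positive cells, 459, 252, 112 and 97.7 CPM in Tph1-high cells and 598, 169, 172 and 218 CPM in peptide-hormone-high cells. Plate 1 was the highest in each of these classes, with only 3 peptide-hormone-high cells. It is the only plate at 39 weeks and has the lowest median depth (321534 counts), so age, plate and depth cannot be told apart. Chgb-low cells had 171, 70.2, 34.0 and 166 CPM and Chgb-high cells 525, 227, 128 and 128 CPM. Tox3 reached 5 counts in 46.0% of Chgb-low and 71.5% of Chgb-high cells.

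**Figure D1:**
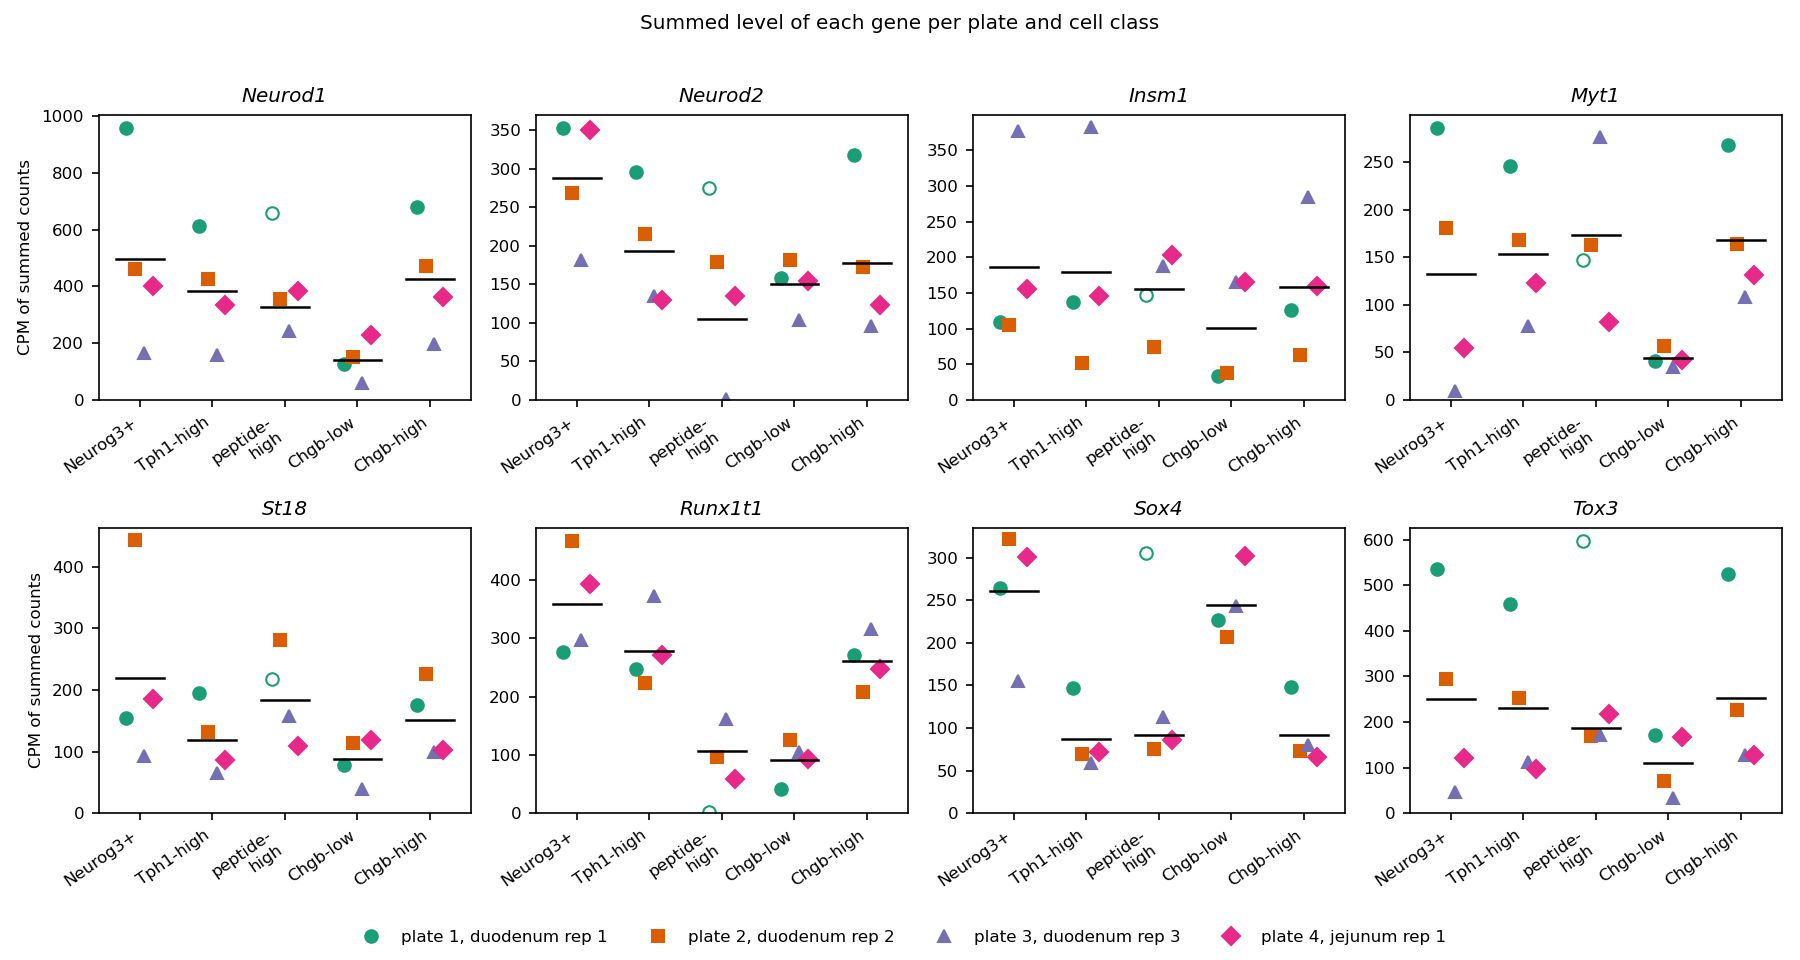
Summed level (CPM, y axis) of each of the 8 genes in 5 cell classes (x axis). Points are plates, hollow where the class has under 5 cells, and lines are the mean of the filled points. Sox4 is high in Neurog3-positive and Chgb-low cells, and Runx1t1 is low in peptide-hormone-high and Chgb-low cells.

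**Figure D2:**
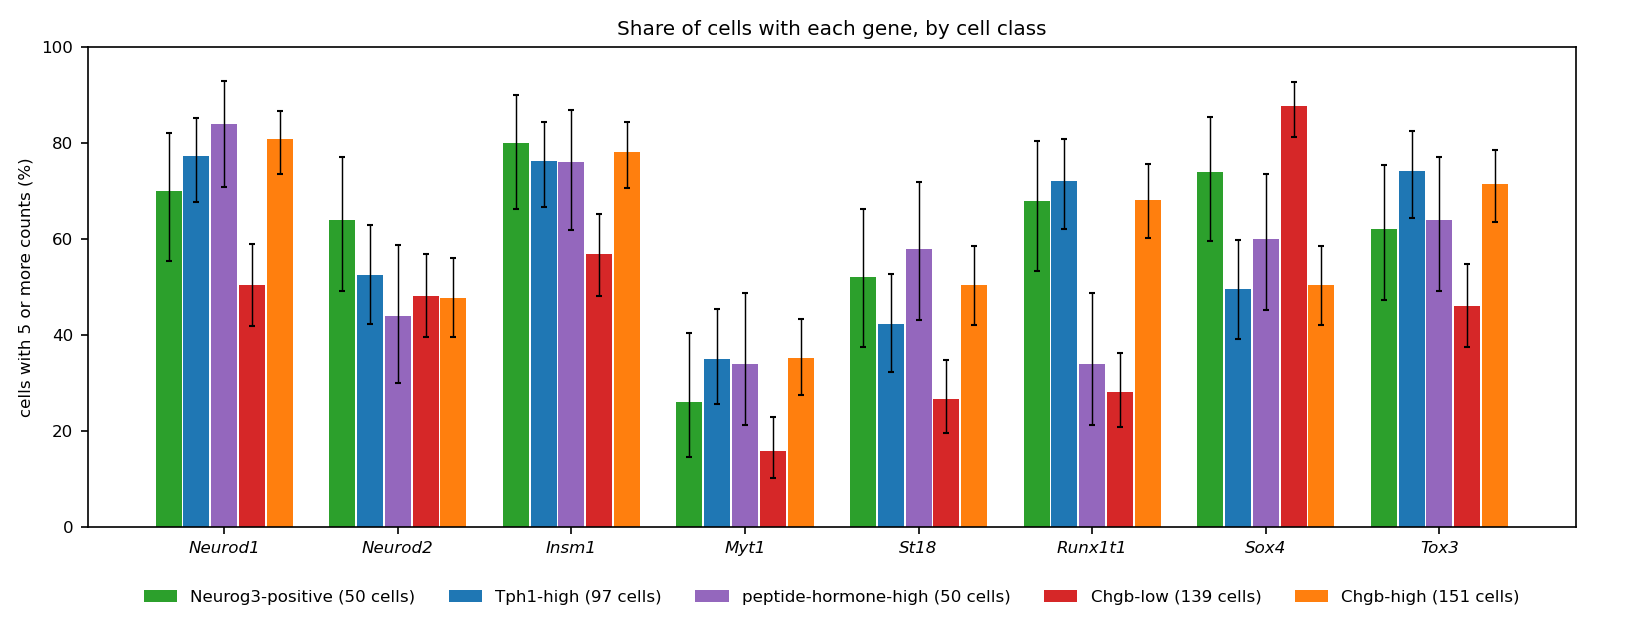
Share of cells (%, y axis) with 5 or more counts of each gene (x axis) in 5 cell classes, with exact 95% binomial intervals over the cells of all plates. Sox4 is highest in Chgb-low cells (87.8%), and Neurod2 has nearly equal values in Chgb-low and Chgb-high cells (48.2% and 47.7%).

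For comparison, 49 Chgb-low cells with 20000 CPM or more of summed goblet and Paneth markers and under 5 Neurog3 counts were examined, a limit chosen after the data had been seen. Their median depth was 403125 counts. Pooled over plates, these reporter-positive cells did not lack the 8 genes. They carried a mean of 3.12 of them at 5 counts, and 4 of the 49 cells carried 0. The mean was 1.80, 3.73, 3.57 and 5.14 in plates 1 to 4. St18 ran over plates from 0.802 to 121 CPM, Myt1 from 0.962 to 18.2 CPM and Neurod1 from 8.50 to 254 CPM, each lowest in plate 3. As a pool, these cells therefore do not give a level at which the genes are absent. Myt1 reached 5 counts in 8.16% of them, St18 in 14.3%, Runx1t1 in 18.4%, Neurod2 in 34.7%, Neurod1 in 40.8%, Tox3 in 49.0%, Insm1 in 61.2% and Sox4 in 85.7%. These cells are part of the Chgb-low class, whose shares were 56.8% for Insm1, 46.0% for Tox3 and 87.8% for Sox4, so for these 3 genes the share in goblet- and Paneth-marker-high cells is near or above that of the whole class. In summed levels, fewer cells with a transcript and less transcript per cell cannot be told apart.

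Chgb-low cells were compared with Chgb-high cells over the 4 plates. Sox4 was higher in Chgb-low cells, by 1.89 ± 0.31 (SE) on the log2 scale with adjusted p = 0.0325 (edgeR quasi-likelihood test, plate as block, Benjamini-Hochberg over 12679 genes), in 4 of 4 plates. It was the 1 gene of the 8 past the threshold of 0.05, where 3.98% of all genes tested passed in either direction, 2.48% as higher and 1.5% as lower. Myt1 did not pass, at -1.47 ± 0.32 and adjusted p = 0.0686, nor did Neurod1, at -1.20 ± 0.31 and 0.106, or Runx1t1, at -1.20 ± 0.37 and 0.156. Those 3 genes were lower in 4 of 4 plates. The share of all genes with 1 direction in 4 of 4 plates was not taken. Tox3 (-0.84 ± 0.41), St18 (-0.43 ± 0.31), Insm1 (-0.43 ± 0.35) and Neurod2 (0.29 ± 0.30) had adjusted p-values of 0.307, 0.476, 0.538 and 0.622. At an unadjusted p under 0.05 there were 4 of the 8, and 20.7% of all genes. The median log2 difference of the 8 was -0.63 and that of all genes -0.082.

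The Sox4 call needed all 4 plates and depended on the scaling. It passed in 0 of the 4 fits that left out 1 plate (adjusted p 0.0501 to 0.159, log2 difference 1.67 to 2.14). TMM scaling moved the median of all genes by 0.41 relative to total counts. On total counts, the scale of the single-plate CPM values, the median log2 difference was -0.49 for all genes and -1.05 for the 8. On total counts alone Sox4 was at 1.47 ± 0.30 (adjusted p = 0.0565 in edgeR), and Myt1, at -1.88 ± 0.30 (adjusted p = 0.0314), was the 1 gene of the 8 that passed, where 4.18% of all genes did, 1.49% as higher and 2.69% as lower. That scaling turned the split of all calls from 315 higher and 190 lower to 189 higher and 341 lower. Without the 57 cells whose goblet and Paneth markers summed to 20000 CPM or more (56 of them Chgb-low), Sox4 was at 1.74 ± 0.32 (adjusted p = 0.0548 in edgeR), Myt1 at -0.91 ± 0.33 and Neurod1 at -0.87 ± 0.29, and 0 of the 8 passed. DESeq2 called 4 of the 8, Sox4 (adjusted p = 5.63e-07), Myt1 (0.000449), Neurod1 (0.00201) and Runx1t1 (0.00979), where it called 20.5% of all genes. With each cell given equal weight (limma on the mean of log2(CPM + 1) over cells), 7 of the 8 passed, all but Neurod2, and 34.2% of all genes.

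**Figure D3:**
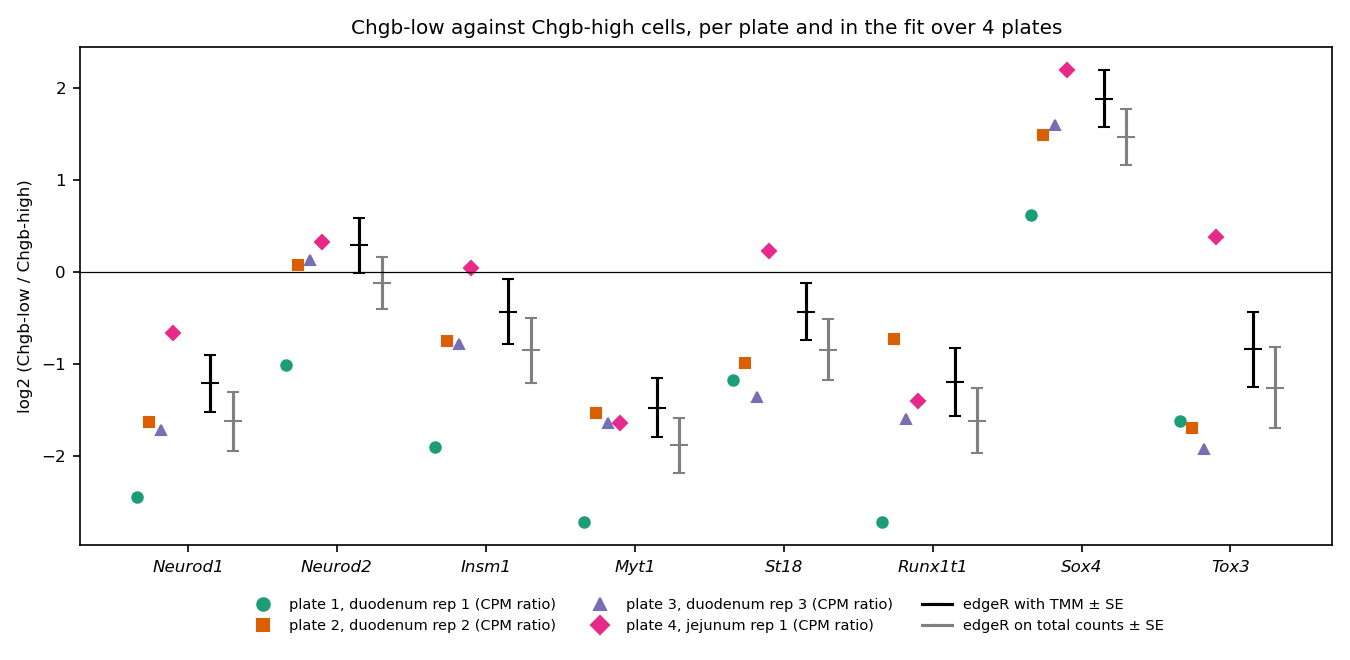
Log2 ratio of Chgb-low to Chgb-high cells (y axis) for each gene (x axis). Coloured points are CPM ratios of single plates, and the other marks are edgeR estimates ± SE over 4 plates with TMM scaling (black) and on total counts (grey). Sox4 is above 0 in 4 of 4 plates, and Neurod1, Myt1 and Runx1t1 are below 0 in 4 of 4. On total counts the median of all genes was -0.49, so 0 is not the level of a typical gene on that scale.

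Neurog3-positive cells were compared with Tph1-high cells in plates 2 and 3, without the cells in both classes (25 against 34 cells). Of these Neurog3-positive cells, 5 of 9 in plate 2 and 13 of 16 in plate 3 were Chgb-low, while 0 Tph1-high cells were. The 2 classes thus also differ in Chgb, and its part in the differences below was not tested. Sox4 was at 417 and 200.5 CPM in Neurog3-positive cells and at 72.2 and 61.5 CPM in Tph1-high cells, without overlap (2.33 ± 0.52, adjusted p = 0.61 in edgeR). St18 was at 510.1 and 68.8 CPM against 118 and 24.5 CPM (2.01 ± 0.53, adjusted p = 0.61 in edgeR), with overlap. With edgeR, 0 of the 8 genes and 0% of 10815 genes passed. At an unadjusted p under 0.05 there were 2 of the 8, Sox4 and St18, and 7.45% of all genes. DESeq2 called both (adjusted p = 0.00428 and 0.0235) and 7.82% of all genes, and limma on cell means called 0 of the 8 and 0.734% of all genes. In plates 1 and 4, where 4 Neurog3-positive cells each were too few for the test, Sox4 was at 325 and 303 against 134 and 53.3 CPM and St18 at 32.3 and 272 against 180.0 and 86.2 CPM. The other 6 genes had log2 differences from -1.35 (Myt1) to 0.90 (Insm1), each within 2 standard errors of 0. Summed goblet markers were at 3755 to 14673 CPM in Neurog3-positive and 515 to 1131 CPM in Tph1-high cells over plates, and their part in these differences was not tested.

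Neurog3-positive cells were compared with peptide-hormone-high cells in plates 2, 3 and 4 (41 against 45 cells). Runx1t1 was at 532, 298 and 394 CPM in Neurog3-positive and at 81.7, 162 and 59.3 CPM in peptide-hormone-high cells, without overlap (2.19 ± 0.50, adjusted p = 0.751 in edgeR and 0.00209 in DESeq2). Sox4 was at 406, 156 and 301 CPM against 84.8, 113 and 85.7 CPM, also without overlap (1.59 ± 0.49, adjusted p = 0.814 in edgeR and 0.0568 in DESeq2). With edgeR 0 of the 8 genes passed, where 0.107% of 10252 genes did. Runx1t1 and Sox4 were the 2 genes of the 8 at an unadjusted p under 0.05, as were 5.5% of all genes. DESeq2 called 2 of the 8, Runx1t1 and Neurod2 (2.59, adjusted p = 0.0388), and 6.48% of all genes, while limma on cell means called 0 of the 8 and 0.402%. Neurod2 was at 319, 182 and 350.3 CPM against 192, 1.08 and 134 CPM, with its widest gap in plate 3.

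Tph1-high cells were compared with peptide-hormone-high cells in the same 3 plates (74 against 45 cells), so most peptide-hormone-high cells are shared with the comparison before. Runx1t1 was at 223, 387 and 275 CPM in Tph1-high and at 96.3, 174 and 46.6 CPM in peptide-hormone-high cells, without overlap (1.59 ± 0.39, adjusted p = 0.509 in edgeR and 0.0143 in DESeq2). Limma on cell means also called it (2.88, adjusted p = 0.0263), with 1.88% of all genes. St18 was lower in Tph1-high cells in 3 of 3 plates, at 132, 66.9 and 88.9 CPM against 281, 170.3 and 119 CPM (-0.998 ± 0.35, adjusted p = 0.658 in edgeR). With edgeR 0 of the 8 passed, and 0.114% of 11452 genes. These 2 genes were at an unadjusted p under 0.05, as were 6.72% of all genes, and DESeq2 called 1 of the 8 and 6.82%. Summed goblet markers in peptide-hormone-high cells were at 702 to 7767 CPM over plates, and their part in these differences was not tested.

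Within Chgb-low cells, those with Neurog3 were compared with those without it in plates 2 and 3 (18 against 58 cells). St18 was at 552 and 76.0 CPM against 52.8 and 24.3 CPM, without overlap (2.48 ± 0.83, adjusted p = 0.953 in edgeR). Neurod2 was at 516 and 171 CPM against 135 and 79.4 CPM (1.49 ± 0.68, adjusted p = 0.953). Sox4 was at 713 and 192 CPM against 136 and 262 CPM (0.94 ± 0.85), so plates 2 and 3 had opposite orders. With edgeR, 0 of the 8 and 0% of 11402 genes passed. St18 was the 1 gene of the 8 at an unadjusted p under 0.05, as were 3.98% of all genes. DESeq2 and limma each called 0 of the 8, and 0.912% and 0% of all genes. In plates 1 and 4, with 3 Neurog3-positive cells each, St18 was at 44.0 and 162 CPM against 79.9 and 110.0 CPM and Neurod2 at 7.90 and 178 CPM against 169 and 150.2 CPM, so plate 1 had the other order for both genes. Over the alternatives tried, the Neurod2 difference ran from 0.20 to 2.89. Summed Paneth markers were at 1390.4 and 1548 CPM in the Neurog3-positive and 3379 and 11739 CPM in the Neurog3-negative cells of plates 2 and 3, and goblet markers at 34796 and 11588 CPM against 19301 and 20177 CPM. Of 6 tested Paneth markers 0 passed in edgeR, 4 were at an unadjusted p under 0.05 and DESeq2 called 2. St18 was at 0.842, 93.4, 0.802 and 121 CPM in the goblet- and Paneth-marker-high cells of plates 1 to 4, and the part of these cells in the difference was not tested.

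The number of the 8 genes that a cell carried at 5 or more counts was also taken. The mean was 4.96 in Neurog3-positive, 4.79 in Tph1-high, 4.54 in peptide-hormone-high, 3.60 in Chgb-low and 4.82 in Chgb-high cells, and 4.36, 4.08, 3.88, 2.84 and 4.09 after thinning. By plate, Chgb-low cells averaged 2.84, 4.00, 3.56 and 4.63 genes and Chgb-high cells 5.07, 4.85, 4.27 and 5.05. The Chgb-low mean was the lower one in 4 of 4 plates, and the ranges over plates overlap. Such a number was not taken for other genes. On total counts the median log2 difference of Chgb-low to Chgb-high cells was -0.49 for all genes and -1.05 for the 8. All 8 genes were found in 7 cells and 0 of them in 6. The mean was 3.21 in the 96 Chgb-low cells that met no other class limit and 4.46 in the 24 Neurog3-positive Chgb-low cells. Of Chgb-low cells, 88 had Sox4 without Runx1t1 and 5 Runx1t1 without Sox4, while of Chgb-high cells these were 20 and 47.

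**Figure D4:**
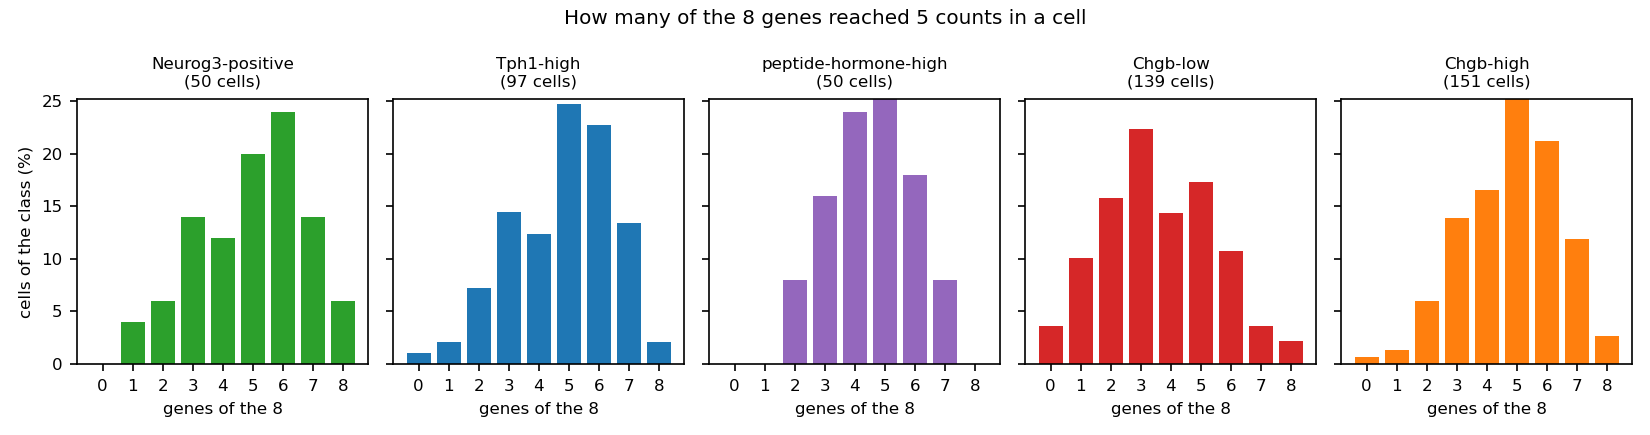
Number of the 8 genes at 5 or more counts in a cell against the share of the class's cells (%), by class. Of Chgb-low cells 16.5% are at 6 genes or more, against 35.8% of Chgb-high cells. The shares are 44.0% of Neurog3-positive, 38.1% of Tph1-high and 26.0% of peptide-hormone-high cells. The classes overlap, and 24 of the 50 Neurog3-positive cells are Chgb-low.

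Across single cells the 8 genes were loosely tied. Spearman's rho of CPM within plates is given as a description, over 63 to 83 cells that share a library and differ in depth. Its mean over plates was highest for Neurod1 with Tox3 (0.28) and lowest for St18 with Sox4 (-0.15). Neurod1 averaged 0.27 with St18, 0.25 with Myt1 and 0.18 with its paralog Neurod2. With Chgb, Sox4 averaged -0.34 (-0.11 to -0.56 over plates), Runx1t1 0.33 and Neurod1 0.29. Chgb and Tph1, for scale, averaged 0.70. With Neurog3, Neurod2 averaged 0.22, Sox4 0.21 and Runx1t1 0.19.

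**Figure D5:**
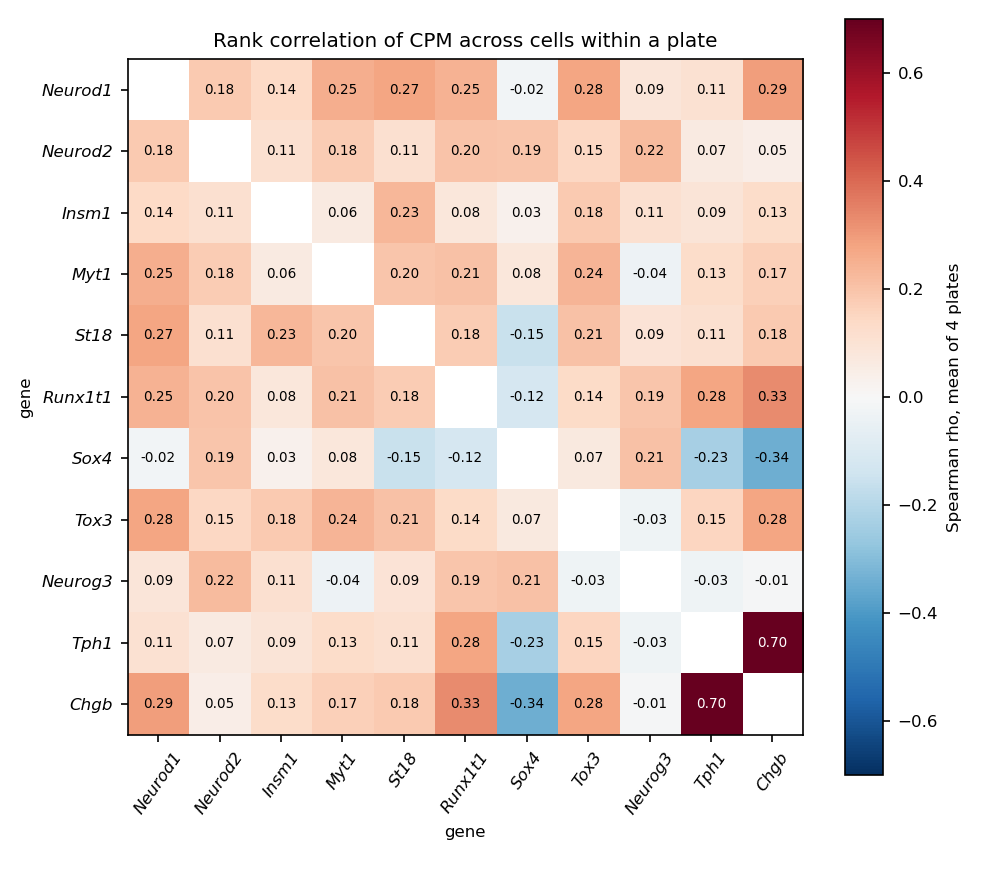
Spearman's rho of CPM across the cells of a plate, averaged over 4 plates, for the 8 genes and for Neurog3, Chgb and Tph1 (both axes are genes, colour is rho). Pairs among the 8 run from -0.15 to 0.28, and Sox4 is negative with Chgb and Tph1.

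Likeness was ranked over 8945 genes with 5 counts in at least 20 cells, and a gene among the 3 most alike is named where rho was over 0.3 in every plate. Neurod1 had Malat1, a nuclear noncoding RNA (mean rho 0.39). Runx1t1 had Gspt1, a translation termination factor (0.45). Sox4 had Smarcd2, a subunit of the BAF chromatin remodelling complex (0.38). Tox3 had Cacna1a, a calcium channel subunit (0.39), and Atrx, a chromatin remodeller (0.37). No such gene was found for Neurod2, Insm1, Myt1 or St18.

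Genes that work with these regulators were read from lists, in Chgb-low against Chgb-high cells, where 2.48% of all genes were called higher and 1.5% lower. Of 12 bHLH partners and inhibitors, 9 were tested, 1 was higher and 0 were lower. The higher gene was Hes6, a bHLH factor that antagonises HES1, at 478, 564, 601 and 494 CPM against 156, 232, 290.4 and 276 CPM, without overlap (1.60 ± 0.19, adjusted p = 0.011 in edgeR). Tcf3, an E protein gene, was at 1.87 ± 0.83 (adjusted p = 0.273). Bhlha15, a secretory-cell bHLH gene, was at 97.1, 60.0, 63.4 and 35.4 CPM against 8.06, 0, 0.255 and 13.7 CPM (adjusted p = 0.188).

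Of 14 corepressor genes, 14 were tested, 1 was higher and 0 were lower. The higher one was Sin3b, a scaffold of histone deacetylase complexes, at 188, 396, 194 and 313 CPM against 54.6, 187, 182 and 90.7 CPM (1.59 ± 0.30, adjusted p = 0.0473 in edgeR). Its lowest Chgb-low plate lay just above its highest Chgb-high plate. Rcor2, a partner of LSD1, was at 297, 349, 323 and 557 CPM against 231, 158, 192 and 119 CPM (1.52 ± 0.32, adjusted p = 0.0665). Lower in Chgb-low cells of every plate were Ncor1 (-0.62 ± 0.17, adjusted p = 0.122 in edgeR and 0.0219 in DESeq2) and Rcor1 (-1.37 ± 0.76, 0.363 and 0.112). In Neurog3-positive against Tph1-high cells of plates 2 and 3 Rcor2 was at 549 and 316 CPM against 105 and 137 CPM (adjusted p = 0.61 in edgeR and 0.00642 in DESeq2).

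Of the 11 paralogs of the 8 genes, 5 were tested and 0 passed in edgeR, with 2 at an unadjusted p under 0.05 and 2 by DESeq2, beside 20.7% and 20.5% of all genes. Both times these were Sox12, a relative of Sox4, at 23.0, 19.9, 21.9 and 10.4 CPM in Chgb-high cells and at most 1.23 CPM in Chgb-low cells (adjusted p = 0.0701 in edgeR), and Cbfa2t3, a relative of Runx1t1 (1.16 ± 0.42, adjusted p = 0.203).

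Of 22 endocrine transcription factor genes, 19 were tested, 0 were higher and 2 were lower. Lmx1a, an enterochromaffin factor, was at 2.67, 4.63, 5.27 and 13.6 CPM in Chgb-low and at 553, 663, 511 and 559 CPM in Chgb-high cells (-6.28 ± 0.48, adjusted p = 0.00367 in edgeR). Fev, a factor of serotonin-producing cells, was at 168, 444, 117 and 309 CPM against 2269.7, 2008, 1349.6 and 1821 CPM (-2.60 ± 0.32, adjusted p = 0.0121 in edgeR). Lmx1a is also an enterochromaffin marker, and 7 of 7 tested genes of that list were lower. In the same comparison 4 of 6 tested goblet markers and 3 of 6 tested Paneth markers were higher. The median log2 differences were 1.60 for bHLH genes, -0.16 for corepressors, 0.42 for paralogs and -0.88 for endocrine factors, beside -0.082 for all genes.

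Of the same endocrine factor list, edgeR called 0 of 18 tested genes between Neurog3-positive and Tph1-high cells and 0 of 19 within Chgb-low cells, with 7 and 2 at an unadjusted p under 0.05 and 7 and 1 called by DESeq2. It called 2 of 18 between Neurog3-positive and peptide-hormone-high cells, Pax6 and Neurog3 itself, which defines the class, and 2 of 20 between Tph1-high and peptide-hormone-high cells. Between Neurog3-positive and peptide-hormone-high cells, Pax6 was at 3.42, 0.803 and 3.10 CPM against 388, 278 and 311 CPM (-7.19 ± 0.65, adjusted p = 0.0354 in edgeR). Between Tph1-high and peptide-hormone-high cells, Isl1, itself in the peptide hormone marker list, was at 1.81, 0.342 and 1.89 CPM against 532, 293 and 479 CPM (adjusted p = 0.0261 in edgeR). Lmx1a was there at 1101, 840.1 and 779.6 CPM against 17.9, 6.98 and 11.3 CPM (adjusted p = 0.0261 in edgeR).

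Jejunum and duodenum were compared on the sum of all cells of a plate, 1 plate against 3, so tissue, animal and plate cannot be told apart. With edgeR 0 of the 8 genes and 0% of 19329 genes passed, with 0 of the 8 and 4.24% of all genes at an unadjusted p under 0.05. DESeq2 called 0 of the 8 and 3.78% of all genes. The log2 differences of the 8 ran from -0.46 ± 0.49 for Sox4 to 0.46 ± 0.84 for Insm1. Over all cells, Insm1 was at 161 CPM in jejunum and at 72.3, 51.2 and 215 CPM in the duodenum plates, and Sox4 at 122 CPM against 194, 133 and 175 CPM. The jejunum value lies within the duodenum range for Insm1 and below it for Sox4.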

How the data were processed

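Counts per gene and cell were deposited by the authors as whole numbers (BD Precise WTA plates, 92 cells and 4 empty wells each). The submitters' processing notes name bcl2fastq 2.17.1.14, cutadapt 1.10, Bowtie2 2.2.8, STAR 2.5.3a, UMI-tools 0.4.4 and HTSeq 0.6.1 and the build mm10, and collapsing of copies by molecular index is not stated there. The genes and lists were chosen with earlier results of these data known.

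Counts were summed per plate and class, cells in both classes were dropped, and a plate needed 5 cells in each class. The test was edgeR's quasi-likelihood test (4.0.16, R 4.3.3) with TMM, filterByExpr and plate as block, Benjamini-Hochberg over all genes, threshold 0.05. It was also run on simulated counts, which had the same dispersion for every gene and no plate effect. That run therefore cannot show how the test behaves on these plates. Plate numbers pair the classes because both come from the same plate. The lone jejunum plate was assumed to vary like the duodenum plates. Alternatives used DESeq2 (1.42.0), limma (3.58.1), no filter, other class limits, thinned cells and left-out plates. CPM is counts per 1000000. No doublet caller was run, and no cell was filtered out. Besides the 8 genes, list genes past the threshold were named, and up to 2 per list and direction with the largest change of 1 sign in every plate could be.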

Additional observations from a re-analysis of the deposited data

Results flagged for a closer look

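In 5 of 24 examined comparisons the jejunum plate moved opposite to every duodenum plate, as a log2 ratio of summed CPM between classes. This was 3 of the 8 genes and 12.1% of all genes in Chgb-low against Chgb-high cells, with 3 duodenum plates. It was 1 of 8 and 20.4% of all genes in Neurog3-positive against peptide-hormone-high cells, and 1 of 8 and 20.6% in Tph1-high against peptide-hormone-high cells, with 2 duodenum plates each. For Insm1 in Chgb-low against Chgb-high cells the ratio was 0.043 in jejunum and -1.90 to -0.75 in the duodenum plates. For St18 in Chgb-low against Chgb-high cells the ratio was 0.23 in jejunum and -1.36 to -0.99 in the duodenum plates. For Tox3 in Chgb-low against Chgb-high cells the ratio was 0.38 in jejunum and -1.91 to -1.62 in the duodenum plates. For Insm1 in Neurog3-positive against peptide-hormone-high cells the ratio was -0.39 in jejunum and 0.48 to 1.00 in the duodenum plates. For Neurod2 in Tph1-high against peptide-hormone-high cells the ratio was -0.097 in jejunum and 0.27 to 6.91 in the duodenum plates. These differences were not tested, and with 1 jejunum plate the tissue and the plate cannot be told apart. In 0 of 32 groups of 4 plates did 1 plate stand apart by Dixon's limit, where chance alone gives about 1 in 20. The groups share plates and cells and hold 4 values each, so this count does not show that the plates agree.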

How the results depend on the processing

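Of all recomputed log2 differences of the 8 genes, 467 kept their direction and side of the threshold, 17 newly passed, 7 no longer passed and 37 changed sign. With DESeq2, genes passing numbered 2593 in Chgb-low against Chgb-high, 846 in Neurog3-positive against Tph1-high, 664 in Neurog3-positive against peptide-hormone-high, 781 in Tph1-high against peptide-hormone-high, 104 in Neurog3-positive against Neurog3-negative within Chgb-low and 731 in jejunum against duodenum. Of the 8, 4 in Chgb-low against Chgb-high, 2 in Neurog3-positive against Tph1-high, 2 in Neurog3-positive against peptide-hormone-high and 1 in Tph1-high against peptide-hormone-high passed in that setting. With no replicate block, of the 8, 2 in Chgb-low against Chgb-high passed. The share of all genes passing there is not given here, so this count is not read as a result about the 8. The sign turned for Insm1 in Tph1-high against peptide-hormone-high (0.23) in that setting. With a Chgb limit of 1000 CPM, of the 8, 0 in Chgb-low against Chgb-high passed, and the share of all genes is again not given. The sign turned for Neurod1 in Neurog3-positive against Neurog3-negative within Chgb-low (-0.25), Runx1t1 in Neurog3-positive against Neurog3-negative within Chgb-low (-0.0081), Sox4 in Neurog3-positive against Neurog3-negative within Chgb-low (-0.40) and Tox3 in Neurog3-positive against Neurog3-negative within Chgb-low (-0.70) in that setting. With limma on cell means (chosen after seeing the data), genes passing numbered 2359 in Chgb-low against Chgb-high, 51 in Neurog3-positive against Tph1-high, 28 in Neurog3-positive against peptide-hormone-high and 136 in Tph1-high against peptide-hormone-high. Of the 8, 7 in Chgb-low against Chgb-high and 1 in Tph1-high against peptide-hormone-high passed in that setting. The sign turned for Neurod2 in Chgb-low against Chgb-high (-0.0017), Neurod1 in Neurog3-positive against peptide-hormone-high (-0.011), Insm1 in Tph1-high against peptide-hormone-high (0.20) and Tox3 in Tph1-high against peptide-hormone-high (0.014) in that setting. On total counts without TMM (chosen after seeing the data), the sign turned for Neurod2 in Chgb-low against Chgb-high (-0.12), Neurod1 in Neurog3-positive against peptide-hormone-high (-0.00083) and Insm1 in Tph1-high against peptide-hormone-high (0.00053). Without cells high in goblet and Paneth markers (chosen after seeing the data), genes passing numbered 289 in Chgb-low against Chgb-high. Of the 8, 0 in Chgb-low against Chgb-high passed in that setting. Without a filter on low counts, genes passing numbered 5 in Neurog3-positive against Tph1-high, 19 in Neurog3-positive against peptide-hormone-high, 3 in Neurog3-positive against Neurog3-negative within Chgb-low and 9 in jejunum against duodenum. The sign turned for Neurod1 in Neurog3-positive against peptide-hormone-high (-0.0091), Insm1 in Tph1-high against peptide-hormone-high (0.014) and Tox3 in Neurog3-positive against Neurog3-negative within Chgb-low (-0.14) in that setting. With plates of at least 3 cells per class, genes passing numbered 113 in Neurog3-positive against Tph1-high and 7 in Neurog3-positive against peptide-hormone-high. The sign turned for Neurod1 in Neurog3-positive against Tph1-high (-0.085), Insm1 in Neurog3-positive against Tph1-high (-0.44), Runx1t1 in Neurog3-positive against Tph1-high (-0.090), Insm1 in Neurog3-positive against Neurog3-negative within Chgb-low (-0.42) and Tox3 in Neurog3-positive against Neurog3-negative within Chgb-low (-0.53) in that setting. With cells thinned to 100000 counts, genes passing numbered 22 in Neurog3-positive against Tph1-high, 34 in Tph1-high against peptide-hormone-high and 4 in Neurog3-positive against Neurog3-negative within Chgb-low. The sign turned for Insm1 in Tph1-high against peptide-hormone-high (0.12), Tox3 in Neurog3-positive against Neurog3-negative within Chgb-low (-0.45) and Myt1 in jejunum against duodenum (-0.037) in that setting. With a Tph1 limit of 500 CPM, the sign turned for Insm1 in Tph1-high against peptide-hormone-high (0.0046). Leaving out 1 plate at a time, genes passing numbered 114 to 291 in Chgb-low against Chgb-high, 4 to 6 in Neurog3-positive against peptide-hormone-high, 0 in Tph1-high against peptide-hormone-high and 0 to 10 in jejunum against duodenum. In those fits, of the 8 genes, the number passing was 0 in Chgb-low against Chgb-high. In those fits, the log2 difference ran over 0, at -0.61 to 1.25 for Runx1t1 in Neurog3-positive against Tph1-high, -3.44 to 0.29 for Myt1 in Neurog3-positive against Tph1-high, -0.16 to 0.30 for Neurod1 in Neurog3-positive against peptide-hormone-high, -1.28 to 0.056 for Tox3 in Neurog3-positive against peptide-hormone-high, -0.60 to 0.29 for Insm1 in Tph1-high against peptide-hormone-high, -1.68 to 0.22 for Myt1 in Tph1-high against peptide-hormone-high, -0.45 to 2.39 for Sox4 in Neurog3-positive against Neurog3-negative within Chgb-low, -0.79 to 0.86 for Tox3 in Neurog3-positive against Neurog3-negative within Chgb-low, -0.74 to 0.22 for Tox3 in jejunum against duodenum, -0.43 to 0.23 for St18 in jejunum against duodenum, -0.0056 to 0.55 for Neurod1 in jejunum against duodenum and -0.15 to 0.25 for Myt1 in jejunum against duodenum. Without the replicate block Myt1 was at -1.53 (adjusted p = 0.0485 in edgeR) in Chgb-low against Chgb-high cells. Where 2 plates entered, leaving out 1 left a single plate and a value with no test, as did a Chgb limit of 1000 CPM within Chgb-low cells. The jejunum comparison cannot be made without its 1 jejunum plate. Small cell numbers per plate limit the precision, since single cells hold large shares of a class's counts. Except where the setting itself uses fewer plates or cells, the cause of a change was not tested.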
